A study of Mus musculus with 10 samples.

Results

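The 40 genes described here encode the proteins that copy DNA in S phase: those that license and fire replication origins, the enzymes of the replication fork, the suppliers of nucleotides, the factors that rebuild chromatin behind the fork and a few regulators of the programme. They were chosen by symbol from what their products are known to do, with earlier results of these data already known. The count table held all 40 among its 55573 gene IDs. All 40 passed the filter on low counts and were among the 15578 genes tested.

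Dividing cells load the MCM2-7 helicase onto origins in G1 with the help of ORC, CDC6 and CDT1, and CDC45 and the GINS complex convert it into the active helicase when S phase begins. Most of these genes are transcribed under the control of E2F factors, which the retinoblastoma protein and its relatives hold in check until cyclin-dependent kinases release them. CDK7 is the kinase of the CDK-activating complex, which phosphorylates the cell cycle CDKs, and of the general transcription factor TFIIH. Projection neurons of the cortex have left the cell cycle, and some of these proteins, such as PCNA and RPA, also serve in DNA repair.

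RNA was sequenced from EYFP-positive cells that had been sorted by flow cytometry from the cortex of mouse pups on postnatal day 3, with 1 preparation per mouse. The 5 Ctrl libraries were NexCre/+;Cdk7+/+, R26EYFP/+ and the 5 Cdk7 knockout libraries (Cdk7_KO) were NexCre/+;Cdk7lox/lox, R26EYFP/+. All mice therefore carried 1 copy of the Cre driver and 1 of the reporter, and the groups differed in the floxed Cdk7 alleles. NexCre is a Cre knocked into Neurod6, a gene switched on as cortical excitatory neurons form, so that deletion and fluorescence were both limited to cells with a history of that driver, and RNA of cells that divide without it enters only as far as the sort let such cells or their RNA through.

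Total counts per library lay between 23497621 and 31233466. The deleted gene, Cdk7, averaged 15.7 ± 4.00 CPM in Ctrl against 5.16 ± 1.30 CPM with the deletion (SD, n = 5; CPM, counts scaled to a common library total). Its groups did not overlap (two-sided exact permutation p = 0.0079, the smallest that 5 against 5 libraries allow), while the edgeR adjusted p was 0.161. By Xist and Ddx3y, 2 of the Ctrl and 3 of the Cdk7_KO libraries came from males. The 11 markers of projection neurons were detected in every library and summed to 4102 to 5351 CPM in Ctrl and 4814 to 5845 CPM in Cdk7_KO. Markers of cells that the driver does not mark were also present: the 12 radial glia genes summed to 1500.0 to 2414 CPM in Ctrl and 639.7 to 1630.1 CPM in Cdk7_KO, with 0 of them at a count of 0 in any library. Astrocyte (293 to 619 and 72.0 to 352 CPM), microglia (88.6 to 296 and 47.3 to 148 CPM) and vessel markers (186 to 1172 and 47.8 to 260.5 CPM) had lower means in Cdk7_KO, and Ctrl replicate 1 held the highest vessel sum. The same held for markers of the oligodendrocyte lineage (333 to 935 and 203 to 565 CPM), which include Pdgfra and Olig1 of its dividing precursors, of interneurons (75.7 to 366 and 22.8 to 269 CPM) and of erythroid cells (69.9 to 172 and 30.1 to 77.4 CPM). Markers of intermediate progenitors, the dividing precursors of projection neurons, summed to 209.6 to 287 CPM in Ctrl and 194 to 274 CPM in Cdk7_KO, a ratio of means of 0.993. That sum joins opposite directions: of the 6 markers tested 3 had negative and 3 positive log2 fold changes (Cdk7_KO over Ctrl, -0.69 to 0.30). The most abundant, Insm1, averaged 115 CPM in Ctrl and 136 CPM in Cdk7_KO, and the next, Btg2, 63.6 and 47.8 CPM.

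E2F motifs stood in the promoters of many of these genes, and the stretches that hold them are shown for genes at both ends of the range of fold changes described below. Promoter sequences from RefSeq (GRCm38.p6, from 250 bases before to 50 bases after the annotated start) were matched by symbol for 34 of the 40 genes. A search on both strands for TTTCCCGC, TTTCGCGC, TTTGCCGC and TTTGGCGC, the forms of the E2F consensus, found at least 1 match in 14 of the 34 genes (41.2%). The same search gave 521 of 11401 tested genes with a promoter in the table (4.57%), 704 of all 27025 genes in it (2.605%) and 1 of 17 mitosis genes. Matches can overlap each other, as in Mcm5 and Mcm6, and Mcm3, Mcm6 and Mcm7 hold further matches that are not shown. Capitals mark the motif, in either direction, and each line is written 5′ to 3′ on the strand of the gene. Only 1 match is capitalised per line: the Mcm5 line also holds GCGCCAAA, which overlaps the capitals, and the last 8 bases of the Rfc3 line are a second match, GCGGGAAA. The first 6 genes shown had lower mean levels in Cdk7_KO, the Mcm6 difference was small, and Mcm7 and Rfc3 had positive fold changes.
Orc1 (chr4:108579417-108579444, + strand): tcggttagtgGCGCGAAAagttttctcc
Uhrf1 (chr17:56304118-56304145, + strand): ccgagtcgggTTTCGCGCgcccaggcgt
Cdc6 (chr11:98908003-98908030, + strand): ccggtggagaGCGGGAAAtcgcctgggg
Mcm3 (chr1:20820276-20820303, - strand): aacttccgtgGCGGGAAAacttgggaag
Hells (chr19:38930918-38930945, + strand): accaccgggtTTTCCCGCgaaagagaag
Mcm5 (chr8:75109346-75109373, + strand): cgccaagaacTTTCGCGCcaaaacgtcc
Mcm6 (chr1:128359735-128359762, - strand): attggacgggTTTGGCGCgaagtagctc
Mcm7 (chr5:138171850-138171877, - strand): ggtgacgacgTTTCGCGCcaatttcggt
Rfc3 (chr5:151651201-151651228, - strand): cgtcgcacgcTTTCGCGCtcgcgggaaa
The motif thus occurred in promoters of genes that differed widely in fold change. The 14 genes with a match had a median log2 fold change of -0.38 and the 20 without one -0.20. In edgeR 5 of the 14 and 6 of the 20 were lower at an unadjusted p under 0.05, where 10.5% of all genes tested were lower. The CHR element TTTGAA, a motif of late cell cycle promoters, occurred in 4 of the 34 replication genes and in 12 of 17 mitosis genes, against 14.0% of the tested genes. The CCAAT box was found in 22 of the 34, in 15 of the 17 and in 42.8% of the tested genes. A match of letters is not a measured binding site.

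In the Ctrl libraries the replication genes spanned a wide range of levels. Levels were compared between genes per length, as TPM (counts divided by the length of all annotated exons and scaled to a common total). Pcna, the sliding clamp that holds polymerases on DNA, stood first with 129.6 ± 12.5 TPM (SD, n = 5), which exceeded the level of 90.7% of the tested genes. Mcm7 followed with 99.9 ± 11.3 TPM, and then came Gins4 (58.5 ± 6.52 TPM), the dUTPase gene Dut (54.5 ± 5.52 TPM) and Rrm2 (50.3 ± 4.51 TPM), 3 neighbours in the order whose values overlapped within their SDs. At the other end were Orc1, the largest subunit of the origin recognition complex, with 1.15 ± 0.479 TPM, Mcm10 with 1.35 ± 0.299 TPM, E2f2 with 2.08 ± 0.459 TPM and Cdc6 with 2.22 ± 0.450 TPM. In all, 19 of the 40 genes lay above the median of the tested genes. Counts ran from 2 (Orc1 in Cdk7_KO replicate 4) to 3756 (Mcm7 in Cdk7_KO replicate 1), and 8 of the 40 genes had fewer than 100 counts in at least 1 library.

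Between the genotypes, the replication genes as a group were slightly lower in Cdk7_KO, and the difference was uneven. Of 40 genes 33 had a negative log2 fold change (Cdk7_KO over Ctrl), where 47.5% of all genes tested were negative and 52.5% positive, and their median was -0.22, against 0.01 over the whole table. No gene passed edgeR's quasi-likelihood test at an adjusted p of 0.05, that is, 0 of the 40 and 0% of the tested genes in either direction, and limma voom also gave 0. At an unadjusted p under 0.05 edgeR gave 11 of the 40 lower and 0 higher, where 10.5% of all genes were lower and 4.9% higher. The count of 11 was 17 without Cdk7_KO replicate 1, 7 without Cdk7_KO replicate 3 or 4, and 6 without Ctrl replicate 5 or Cdk7_KO replicate 2, while the share of all genes lower stayed between 8.27% and 11.3%. DESeq2 called 2 of the 40 lower, Tk1 and Cdc45, and 0 higher, where 3.02% of all genes were called lower and 0.226% higher. The levels of 3 genes, Cdc45, Tyms and Rfc4, did not overlap between the groups in CPM and were lower, as for 2.41% of all genes. For Rfc4 this depends on the scaling, since its groups overlap with TMM-scaled sizes.

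The summed level of the 40 genes averaged 926 ± 57.7 CPM over the Ctrl libraries and 813 ± 61.6 CPM over the Cdk7_KO libraries (SD, n = 5). The ratio of the means was 0.879. By library the sum was 889, 918, 979.8, 987 and 854 CPM in Ctrl replicates 1, 3, 4, 5 and 6 and 910.2, 784, 795, 747 and 829.5 CPM in Cdk7_KO replicates 1 to 5. Cdk7_KO replicate 1 lay within the Ctrl range and the other Cdk7_KO libraries lay below it. In the same libraries the 20 mitosis genes, which include Mki67 and Top2a, summed to 305, 294, 316, 270.1 and 205 CPM in Ctrl and 178, 138, 187, 54.7 and 128 CPM in Cdk7_KO, without overlap. The 20 had a median log2 fold change of -0.996, and each was lower at an unadjusted p under 0.05. The 12 radial glia genes had a median log2 fold change of -0.93 and summed to 2094, 2335, 2414, 2179 and 1500.0 CPM in Ctrl and 1630.1, 1135, 1431, 639.7 and 977 CPM in Cdk7_KO. In CPM on library totals, Cdk7_KO replicate 4 had the lowest sum of all 10 libraries in each of these 3 lists. Its TMM factor was also the lowest (0.943). With TMM-scaled sizes it is no longer the lowest for the 40 replication genes, while it stays so for the mitosis and radial glia genes. Bulk RNA cannot tell fewer dividing cells in a sort from less RNA per cell, and the part of other cells in the fold changes of the replication genes was not tested. When a score of astrocyte, microglia, vessel and oligodendrocyte markers was added to the model, the median of the 40 genes was -0.050 and 2 (Cdc45 and Pola2) were lower at an unadjusted p under 0.05, as were 0.796% of all genes. The score ran from 0.275 upward in Ctrl and from 0.0768 downward in Cdk7_KO and cannot be told apart from genotype.

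**Figure D1:**
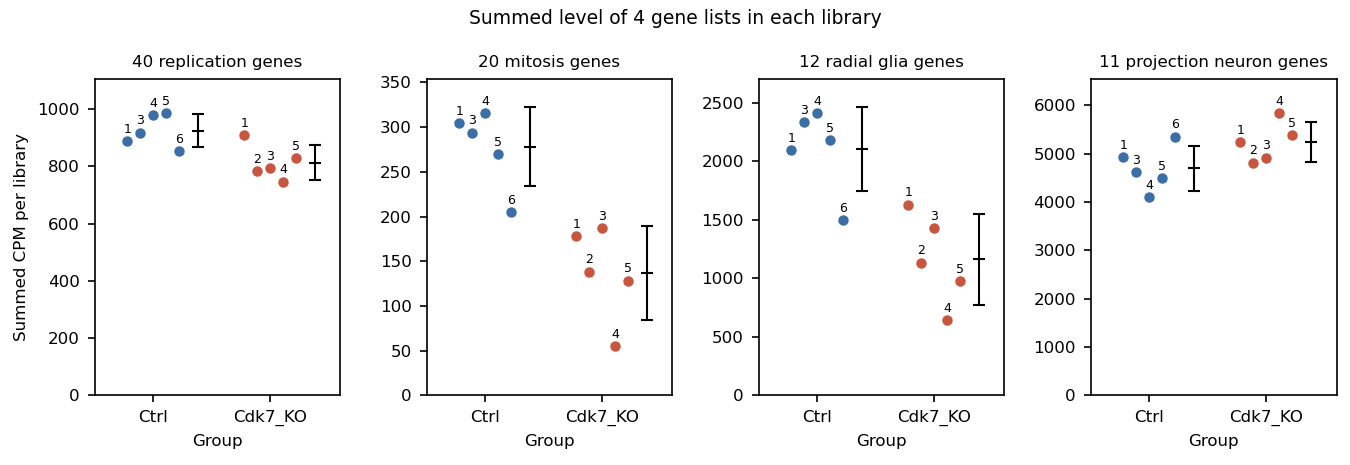
Summed CPM of 4 gene lists in each library (points numbered by replicate; bars, mean ± SD of 5 libraries). The 40 replication genes averaged 926 ± 57.7 CPM without and 813 ± 61.6 CPM with the deletion, a smaller relative difference than for the 20 mitosis genes (278 ± 44.2 and 137 ± 52.4 CPM).

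**Figure D2:**
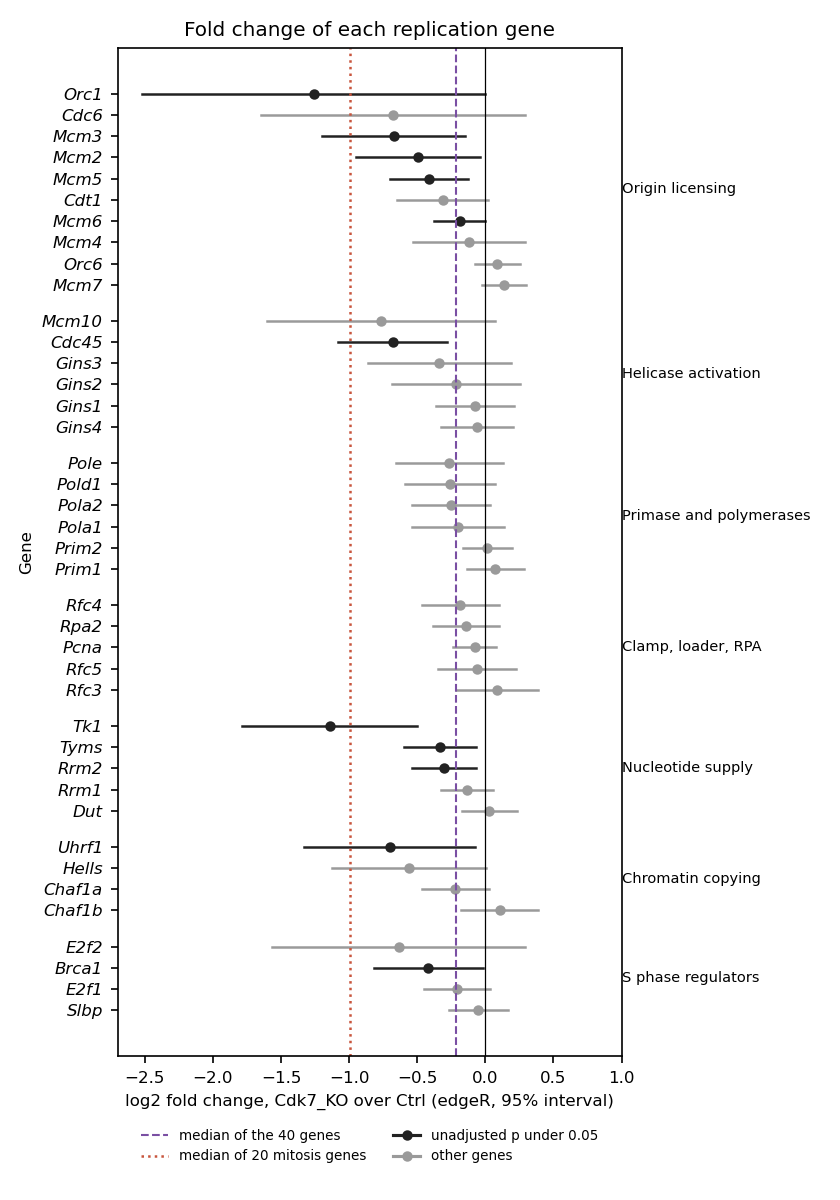
The log2 fold change of each of the 40 genes with its 95% interval from edgeR, ordered by role; black marks an unadjusted p under 0.05. The points run from -1.26 for Orc1 to 0.14 for Mcm7, and the dashed and dotted lines give the medians of the 40 replication genes and of 20 mitosis genes.

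The 10 origin licensing genes had a median log2 fold change of -0.36, and 5 of them (Orc1, Mcm2, Mcm3, Mcm5 and Mcm6) were lower at an unadjusted p under 0.05. Below, values are given for Ctrl replicates 1, 3, 4, 5 and 6 and then for Cdk7_KO replicates 1 to 5. Mcm5, a helicase subunit, was at 37.5, 36.3, 33.6, 39.3 and 29.3 CPM in the Ctrl libraries and 32.0, 22.1, 27.4, 18.8 and 27.1 CPM in the Cdk7_KO libraries, a log2 fold change of -0.41 (SE 0.13, edgeR unadjusted p = 0.00804, adjusted p = 0.187). Mcm3, its neighbour in the helicase ring, was at 20.8, 17.4, 21.6, 24.9 and 18.6 CPM in the Ctrl libraries and 20.7, 8.64, 14.3, 6.94 and 12.01 CPM in the Cdk7_KO libraries, a log2 fold change of -0.67 (SE 0.24, edgeR unadjusted p = 0.0161, adjusted p = 0.215). In both genes 4 of the 5 Cdk7_KO libraries lay below every Ctrl library, and replicate 1 lay within the Ctrl range. Orc1 was at 1.36, 1.44, 0.767, 1.27 and 0.407 CPM in the Ctrl libraries and 0.866, 0.117, 0.486, 0.0841 and 0.535 CPM in the Cdk7_KO libraries, a log2 fold change of -1.26 (SE 0.58, edgeR unadjusted p = 0.04996, adjusted p = 0.325), and rests on 2 to 45 counts per library. Cdc6, the ATPase that loads the helicase with ORC, was at 2.38, 2.82, 3.59, 3.71 and 2.63 CPM in the Ctrl libraries and 4.23, 0.938, 1.95, 0.505 and 1.48 CPM in the Cdk7_KO libraries, and its log2 fold change of -0.68 had a 95% interval of -1.65 to 0.29. Its highest level of all 10 libraries was in Cdk7_KO replicate 1 and its lowest in Cdk7_KO replicate 4.

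In 2 licensing genes, Mcm7 and Orc6, the fold change was positive. Mcm7, the most abundant subunit, was at 101, 119.9, 134, 113 and 109 CPM in the Ctrl libraries and 130.1, 124, 111, 120.0 and 127 CPM in the Cdk7_KO libraries, with a log2 fold change of 0.14 (SE 0.07, edgeR unadjusted p = 0.0875, adjusted p = 0.401) and an interval of -0.02 to 0.30. Orc6, which joins the origin recognition complex, had a log2 fold change of 0.09 with an interval of -0.08 to 0.25, and its Ctrl and Cdk7_KO levels (29.0 ± 1.61 CPM and 29.7 ± 0.791 CPM, SD, n = 5) overlapped. Orc6 shares 171 of its 2469 exon bases with Vps35 on the opposite strand (175 CPM on average). Cdt1, the partner of CDC6 in loading, had a log2 fold change of -0.31 (SE 0.15). Among the other helicase subunits the log2 fold change was -0.49 (SE 0.21) for Mcm2, -0.12 (SE 0.19) for Mcm4 and -0.19 (SE 0.09) for Mcm6.

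The proteins of the 6 MCM2-7 genes form a ring with 1 copy of each, while their RNA levels differed per length. Of the summed TPM of the 6 genes in Ctrl, Mcm7 took 40.9 ± 3.14% and Mcm2 6.24 ± 0.730% (SD, n = 5). In Cdk7_KO the shares were 49.1 ± 4.62% and 4.74 ± 1.14%. The shares depend on the length of all annotated exons, 4426 bases for Mcm7 and 6956 for Mcm2, which need not be that of the RNA present. The Mcm7 share lay between 36.9% and 44.2% in Ctrl and between 43.3% and 54.4% in Cdk7_KO, so the ranges overlapped slightly. Mcm7 (ENSMUSG00000029730, chromosome 5, 138164583 to 138172422 in GRCm38) shares exon bases with Cops6 and Ap4m1 on the opposite strand. The strand setting of the counting is not given in the sources used here, and whether the count of Mcm7 holds reads of these neighbours was not tested.

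**Figure D3:**
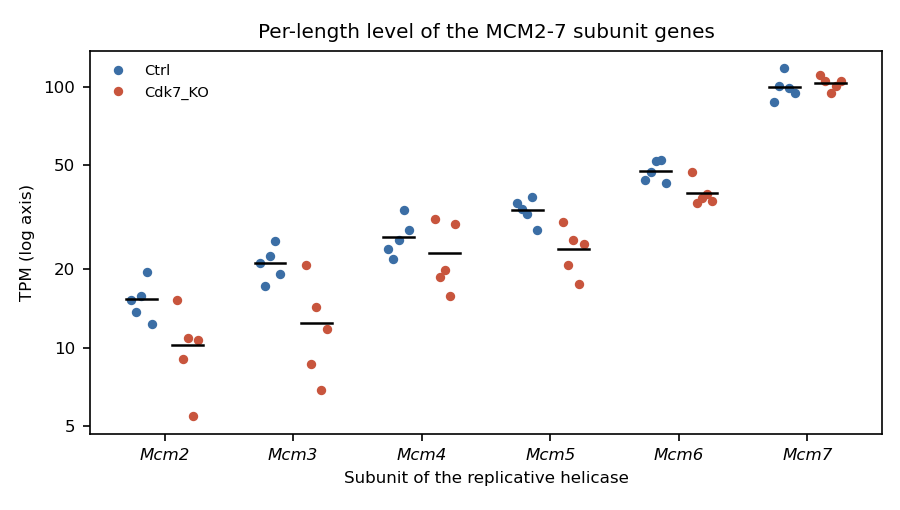
TPM of the 6 helicase subunit genes in each library on a log axis (points, 5 libraries per group; lines, means). Mcm7 was at 99.9 ± 11.3 TPM in Ctrl and 103 ± 5.96 TPM in Cdk7_KO (SD, n = 5), while Mcm3 was at 21.1 ± 3.16 TPM and 12.5 ± 5.43 TPM.

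The 6 genes of helicase activation had negative log2 fold changes (median -0.28), and 1 of them, Cdc45, was lower at an unadjusted p under 0.05. Cdc45, which binds the MCM ring to form the active helicase, was at 10.2, 8.58, 7.87, 8.09 and 6.85 CPM in the Ctrl libraries and 4.64, 5.82, 4.05, 6.27 and 4.16 CPM in the Cdk7_KO libraries. The highest Cdk7_KO library lay below the lowest Ctrl library. Its log2 fold change of -0.68 (SE 0.18, edgeR unadjusted p = 0.00293, adjusted p = 0.165) went with a DESeq2 adjusted p of 0.0202. Within Cdk7_KO its highest level was in replicate 4 and its lowest in replicate 3. With the score of other cell types in the model its log2 fold change was -1.04 (edgeR unadjusted p = 0.00279, adjusted p = 1.000). Cdc45 (ENSMUSG00000000028, chromosome 16, 18780447 to 18811987 in GRCm38) shares 209 of its 3506 exon bases with Ufd1 on the opposite strand. Ufd1 was far more abundant (103 CPM on average), and whether the Cdc45 count holds its reads was not tested.

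Mcm10, which helps activate the helicase, was at 3.02, 2.75, 3.23, 2.90 and 1.70 CPM in the Ctrl libraries and 2.53, 1.37, 1.82, 0.378 and 1.605 CPM in the Cdk7_KO libraries, a log2 fold change of -0.77 (SE 0.39, edgeR unadjusted p = 0.0697, adjusted p = 0.369). Cdk7_KO replicates 1 and 3 lay among the Ctrl values. Gins4, the subunit of the GINS complex with the highest level, was at 18.5, 19.0, 23.7, 20.8 and 20.99 CPM in the Ctrl libraries and 22.03, 20.3, 14.95, 18.8 and 19.0 CPM in the Cdk7_KO libraries, with a log2 fold change of -0.06 and an interval of -0.32 to 0.20. The log2 fold changes of the other GINS genes were -0.08 (Gins1), -0.22 (Gins2) and -0.34 (Gins3), and none of the 4 reached an unadjusted p under 0.05. Gins2 shares 2758 of its 4097 exon bases with Gse1 on the opposite strand, which was far more abundant (126 CPM on average).

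The genes of primase and the replicative polymerases had a median log2 fold change of -0.23, with 0 of 6 at an unadjusted p under 0.05. Pola2, the accessory subunit of polymerase alpha, was at 15.9, 13.8, 19.5, 14.95 and 16.1 CPM in the Ctrl libraries and 13.2, 11.998, 13.9, 14.9 and 10.8 CPM in the Cdk7_KO libraries, a log2 fold change of -0.25 (SE 0.13, edgeR unadjusted p = 0.0788, adjusted p = 0.387). Pold1, the catalytic subunit of the lagging-strand polymerase delta, was at 18.0, 25.9, 29.1, 26.0 and 17.1 CPM in the Ctrl libraries and 18.4, 21.4, 15.7, 18.7 and 19.2 CPM in the Cdk7_KO libraries, a log2 fold change of -0.26 (SE 0.15, edgeR unadjusted p = 0.115, adjusted p = 0.443). The groups overlapped in both. Prim2, the large primase subunit, was at 30.3, 29.6, 28.7, 33.4 and 29.5 CPM in the Ctrl libraries and 26.5, 30.6, 29.1, 31.4 and 30.03 CPM in the Cdk7_KO libraries, and its log2 fold change of 0.02 had an interval of -0.17 to 0.20. Prim1, the small subunit, had a log2 fold change of 0.07 (-0.14 to 0.28). Those of Pola1, the catalytic subunit of polymerase alpha, and Pole, the leading-strand polymerase, were -0.20 and -0.27.

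The clamp, its loader and RPA had the median log2 fold change nearest to 0 of the 7 role groups (-0.08), with 0 of 5 at an unadjusted p under 0.05. Pcna was at 85.5, 88.6, 82.8, 82.7 and 67.0 CPM in the Ctrl libraries and 74.4, 72.7, 77.6, 68.3 and 78.3 CPM in the Cdk7_KO libraries, a log2 fold change of -0.08 (SE 0.07, edgeR unadjusted p = 0.299, adjusted p = 0.647) with an interval of -0.23 to 0.08. Rfc4, a subunit of the clamp loader, was at 9.92, 10.3, 10.8, 10.4 and 10.9 CPM in the Ctrl libraries and 9.14, 9.89, 7.13, 8.96 and 9.26 CPM in the Cdk7_KO libraries, a log2 fold change of -0.18 (SE 0.13, edgeR unadjusted p = 0.1804, adjusted p = 0.533). Its CPM did not overlap between the groups, but the gap was small (9.92 CPM in Ctrl replicate 1, 9.89 CPM in Cdk7_KO replicate 2). With TMM-scaled sizes the groups overlap. Rfc4 shares 194 of its 1533 exon bases with Eif4a2 on the opposite strand, which was far more abundant (547 CPM on average). Rpa2, a subunit of the RPA complex that coats single-stranded DNA, was at 14.6, 17.1, 17.3, 19.7 and 16.7 CPM in the Ctrl libraries and 17.2, 15.1, 13.9, 13.6 and 14.6 CPM in the Cdk7_KO libraries, a log2 fold change of -0.14 (SE 0.11, edgeR unadjusted p = 0.219, adjusted p = 0.575). Rfc3 and Rfc5, further loader subunits, had log2 fold changes of 0.09 and -0.06. Rfc5 shares 499 of its 4669 exon bases with Wsb2 on the opposite strand (300 CPM on average).

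Of the 5 nucleotide supply genes 3 were lower at an unadjusted p under 0.05 (median log2 fold change -0.30). Tk1, the S phase thymidine kinase, had the smallest p of the 40 genes and was at 6.55, 4.71, 5.29, 6.08 and 2.07 CPM in the Ctrl libraries and 2.53, 2.11, 2.76, 1.47 and 1.89 CPM in the Cdk7_KO libraries. Ctrl replicate 6 lay within the Cdk7_KO range, and the other 4 Ctrl libraries lay above all Cdk7_KO libraries. The log2 fold change of -1.14 (SE 0.30, edgeR unadjusted p = 0.00216, adjusted p = 0.161) went with a DESeq2 adjusted p of 0.0123. With the sex of the library in the model Tk1 had a log2 fold change of -1.24 and passed (edgeR adjusted p = 0.0314). That model called 732 of 15578 genes, 4.40% of all genes lower and 0.295% higher, so 1 of the 40 is no more than the share over all genes. Tk1 lies on the minus strand (ENSMUSG00000025574, chromosome 11, 117815526 to 117826092 in GRCm38).

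Tyms, which makes thymidylate, was at 12.9, 12.6, 10.3, 13.6 and 10.8 CPM in the Ctrl libraries and 9.42, 9.65, 9.16, 8.83 and 9.01 CPM in the Cdk7_KO libraries, a log2 fold change of -0.33 (SE 0.12, edgeR unadjusted p = 0.0172, adjusted p = 0.218) without overlap between the groups. Rrm2, the S phase subunit of ribonucleotide reductase, was at 39.5, 34.3, 36.7, 39.3 and 32.4 CPM in the Ctrl libraries and 30.4, 23.4, 31.1, 24.2 and 33.4 CPM in the Cdk7_KO libraries, a log2 fold change of -0.30 (SE 0.11, edgeR unadjusted p = 0.0166, adjusted p = 0.217). Rrm1, the large subunit of the same enzyme, was at 67.1, 63.0, 67.8, 69.6 and 64.3 CPM in the Ctrl libraries and 71.3, 49.8, 54.4, 55.2 and 60.5 CPM in the Cdk7_KO libraries, a log2 fold change of -0.14 (SE 0.09, edgeR unadjusted p = 0.155, adjusted p = 0.504), and its Cdk7_KO replicate 1 was the highest of all 10 libraries. Dut, which removes dUTP, had a log2 fold change of 0.03 with an interval of -0.18 to 0.23.

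Among the 4 genes of chromatin copying (median log2 fold change -0.39) Uhrf1 was lower at an unadjusted p under 0.05. Uhrf1, which brings the maintenance DNA methyltransferase to newly copied DNA, was at 15.7, 16.2, 23.1, 21.5 and 13.8 CPM in the Ctrl libraries and 19.1, 7.00, 13.1, 5.55 and 8.68 CPM in the Cdk7_KO libraries, a log2 fold change of -0.70 (SE 0.29, edgeR unadjusted p = 0.0309, adjusted p = 0.271). Hells, a chromatin remodeller that supports DNA methylation, was at 10.1, 6.76, 6.54, 8.62 and 8.07 CPM in the Ctrl libraries and 8.49, 5.51, 5.71, 2.82 and 3.83 CPM in the Cdk7_KO libraries, a log2 fold change of -0.56 (SE 0.26, edgeR unadjusted p = 0.0528, adjusted p = 0.332). Both genes had their lowest level in Cdk7_KO replicate 4, while replicate 1 lay within the Ctrl range. The chaperone CAF-1 deposits histones behind the fork, and its subunit genes Chaf1a and Chaf1b had log2 fold changes of -0.22 and 0.10. Chaf1a was at 21.6, 20.3, 29.3, 25.7 and 25.1 CPM in the Ctrl libraries and 23.2, 19.1, 20.1, 18.8 and 19.6 CPM in the Cdk7_KO libraries (edgeR unadjusted p = 0.0722, adjusted p = 0.374), with overlap between the groups, and shares 4648 of its 8854 exon bases with Ubxn6 on the opposite strand.

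The 4 regulators had a median log2 fold change of -0.31, and Brca1 was lower at an unadjusted p under 0.05. Brca1, which protects stalled forks and serves in recombination repair, was at 5.45, 6.31, 7.79, 8.91 and 7.55 CPM in the Ctrl libraries and 6.13, 4.06, 4.90, 4.67 and 6.17 CPM in the Cdk7_KO libraries, a log2 fold change of -0.42 (SE 0.18, edgeR unadjusted p = 0.0426, adjusted p = 0.306). E2f1, an activator of the S phase genes, was at 18.0, 18.3, 14.9, 17.6 and 17.5 CPM in the Ctrl libraries and 14.4, 15.3, 16.0, 11.99 and 14.5 CPM in the Cdk7_KO libraries, a log2 fold change of -0.21 (SE 0.11, edgeR unadjusted p = 0.0814, adjusted p = 0.392). E2f2, a close relative, was at 2.77, 2.40, 2.66, 3.499 and 1.92 CPM in the Ctrl libraries and 3.26, 1.29, 2.23, 0.421 and 1.03 CPM in the Cdk7_KO libraries, and its log2 fold change of -0.64 had an interval of -1.56 to 0.29. Cdk7_KO replicates 1 and 3 lay within the Ctrl range of E2f2 and the other 3 below it. Slbp, which binds the stem-loop of histone mRNAs, was at 24.7, 24.9, 29.2, 30.5 and 24.0 CPM in the Ctrl libraries and 28.5, 23.7, 27.1, 22.5 and 22.2 CPM in the Cdk7_KO libraries, with a log2 fold change of -0.05 and an interval of -0.27 to 0.17.

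**Figure D4:**
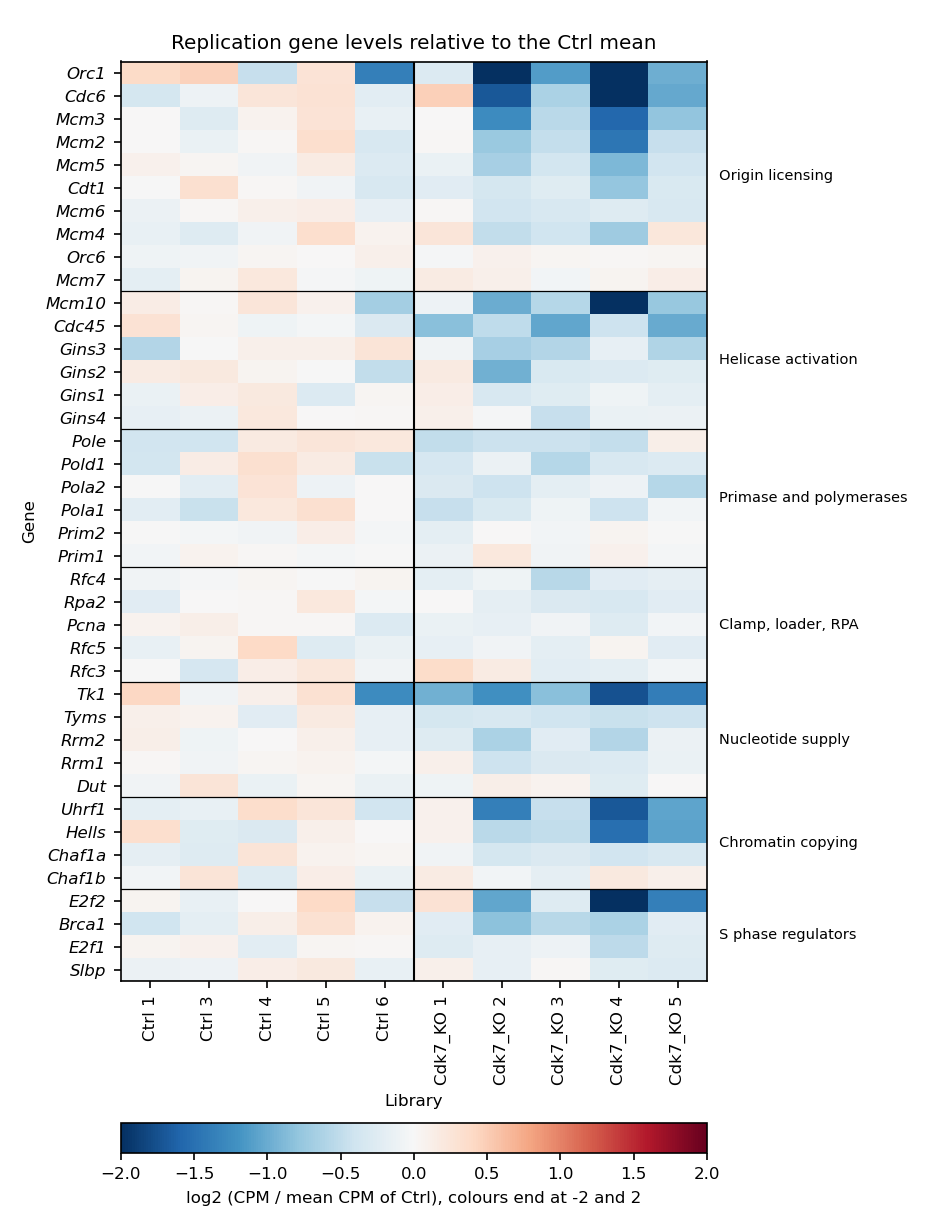
The log2 ratio of each gene's CPM to its mean in Ctrl, for 40 genes (rows, by role) and 10 libraries (columns); blue is lower and red higher, with colours ending at -2 and 2. The licensing genes Orc1, Cdc6, Mcm3 and Mcm2 were pale in Cdk7_KO replicate 1 and dark blue in replicate 4, while rows such as Orc6, Prim2 and Pcna were pale in every library.

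The Cdk7_KO libraries thus differed among themselves. In CPM on library totals, replicate 1 was the highest of its group in 22 of the 40 genes and lay below every Ctrl library in 10. Replicate 4 was the lowest in 18 and lay below every Ctrl library in 25. Replicates 2, 3 and 5 lay below every Ctrl library in 25, 21 and 19 genes. The matching share of all tested genes was not counted per library, and replicate 4 had the lowest TMM factor (0.943). These counts therefore describe the libraries and are not a result about the 40 genes. The ratio of the highest to the lowest Cdk7_KO library was 10.3 for Orc1, 8.37 for Cdc6, 7.74 for E2f2 and 6.68 for Mcm10. These were the 4 genes with the lowest TPM in Ctrl. The ratio was 1.08 for Orc6 and 1.15 for Pcna. Gins3, with a mean CPM in Ctrl (2.86) below that of Cdc6 (3.03), had a ratio of 1.52. Over the 40 genes the median of this ratio was 1.43 in Cdk7_KO and 1.44 in Ctrl. Genes with more negative fold changes varied more within Cdk7_KO (Spearman rho = -0.75 across 40 genes) and also within Ctrl (rho = -0.64). Within Ctrl the ratio of the highest to the lowest library was 3.54 for Orc1, 1.56 for Cdc6, 1.82 for E2f2 and 1.90 for Mcm10. The genes share libraries and differ in counts, so these values describe the 40 genes and are not a test. What sets the spread was not tested. The 10 genes with the lowest mean CPM in Ctrl (1.05 to 8.32 CPM) had a median log2 fold change of -0.66, and the 10 with the highest (27.8 to 115.5 CPM) one of -0.11.

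**Figure D5:**
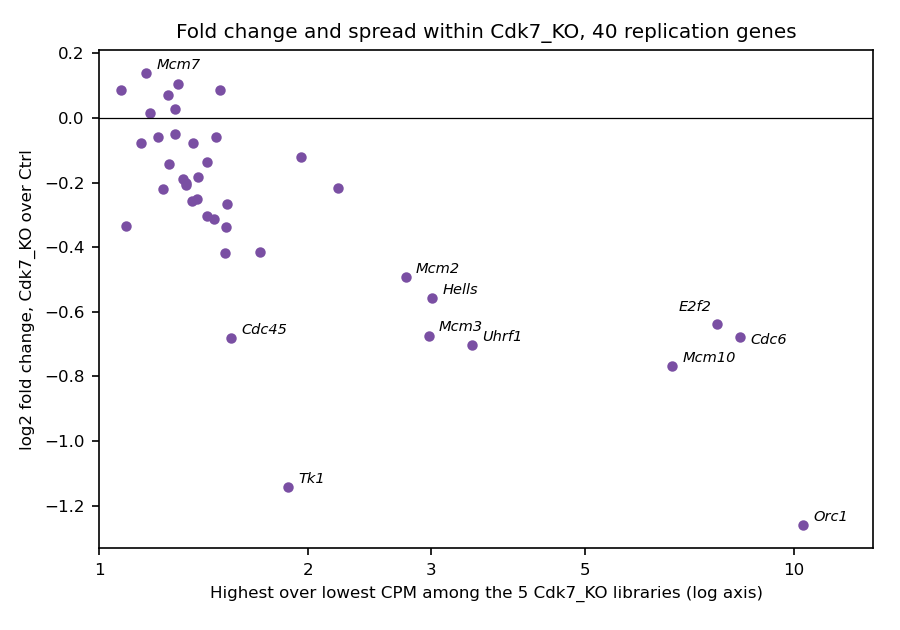
Fold change of each of the 40 genes against the ratio of its highest to its lowest CPM among the 5 Cdk7_KO libraries (log axis). Orc1, Cdc6, E2f2 and Mcm10 had ratios of 6.68 to 10.3, whereas Tk1 and Cdc45, the 2 genes that DESeq2 called, had ratios of 1.87 and 1.55. Within Ctrl, which is not drawn, the ratio was 3.16 for Tk1 and 1.49 for Cdc45.

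By sex, the 40 genes had a median log2 fold change of -0.17 among males and -0.24 among females. In an edgeR model with genotype and sex, the term for a difference between the sexes passed in 0 of the 40 genes after adjustment and in 1, E2f2, at an unadjusted p under 0.05, where 7.34% of all genes did so. E2f2 had a log2 fold change of -0.17 among males and -1.79 among females (edgeR unadjusted p = 0.0422, adjusted p = 0.665 for the difference). Males have the replicate numbers 1 to 3 and females 4 to 6, so sex cannot be told apart from any other difference between these preparations.

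A further 72 genes of replication and S phase control, from checkpoint kinases to E2F partners, had a median log2 fold change of -0.13, with 48 negative. At an unadjusted p under 0.05 edgeR gave 11 lower and 2 higher, where, as above, 10.5% of all genes were lower and 4.9% higher. DESeq2 called 5 of the 72 lower and 0 higher, where 3.02% and 0.226% of all genes were called. Those 5 were Clspn, Cdk2, Rbl1, Ccna2 and E2f7. Clspn encodes claspin, which carries the checkpoint signal from stalled forks, and was at 3.53, 4.77, 6.62, 6.26 and 4.77 CPM in the Ctrl libraries and 3.33, 1.602, 2.63, 0.883 and 1.81 CPM in the Cdk7_KO libraries, a log2 fold change of -1.29 (SE 0.32, edgeR unadjusted p = 0.00150, adjusted p = 0.161). Cdk2, the S phase kinase and a substrate of CDK7, had a log2 fold change of -1.01 (edgeR adjusted p = 0.161), and Ccna2, its cyclin A partner, one of -0.91 (edgeR adjusted p = 0.167). Rbl1 and E2f7, which encode repressors of E2F target genes, had log2 fold changes of -1.02 and -1.09. Of the 72 genes 4 (Clspn, Rbl1, Ccna2 and E2f7) did not overlap between the groups in CPM and were lower, as for 2.41% of all genes. The 2 higher genes were Dctpp1, a pyrophosphatase that clears modified nucleotides (37.1 ± 1.98 CPM without and 44.0 ± 3.62 CPM with the deletion, SD, n = 5; log2 fold change 0.30, edgeR adjusted p = 0.167), and the origin recognition gene Orc5 (log2 fold change 0.27, edgeR adjusted p = 0.266). Dctpp1 did not overlap between the groups and was higher, as for 0.61% of all genes.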

How the data were processed

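The authors deposited 1 table of whole-number counts per gene with 1 column for each of the 10 libraries. STAR, Salmon and GRCm38 are named per the submitters' processing notes, while their settings, roles and versions, and whether counting used strand, were not given in the sources used here. All 10 columns were matched to samples by name and 0 were left over. No library was a copy of another (the closest pair differed by a mean chi-square of 10.5 per gene).

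Counts were tested with edgeR 4.0.16 in R 4.3.3 (filterByExpr by group with a minimum count of 10, TMM factors, quasi-likelihood test, genotype only, Benjamini-Hochberg adjustment over 15578 genes at 0.05). Standard errors come from the F statistic. DESeq2 1.42.0, limma 3.58.1 (voom), other scalings and filters, each library left out, the replicate number as a block, robust estimation, sex and a score of other cells were alternatives. The model scripts were tested on simulated data. CPM uses library totals, and TPM uses exon lengths of GENCODE M21, in which 55480 IDs matched and 93 did not. With 11 of the 40 genes sharing exon bases with a gene on the opposite strand, their levels are less certain.

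The 40 genes and all lists were chosen with earlier results of these data known. Values in every library are given for the 2 genes with the smallest p and the gene with the highest Ctrl CPM of each role group and for DESeq2 calls, and of the 72 further genes up to 5 per direction at an unadjusted p under 0.05 were named. Orc1, Cdc6, E2f2 and Tyms were added after their values were seen.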

Additional observations from a re-analysis of the deposited data

Results flagged for a closer look

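In each group of 5 libraries, a library was singled out when its gap to the nearest other library exceeded 0.71 of the group's range. Of 134 groups of values examined this way 6 met the limit, and chance gives about 1 in 20 (5%). Cdt1 in Cdk7_KO replicate 4 was at 5.59 CPM, below the next library at 7.46 CPM. Pole in Cdk7_KO replicate 5 was at 14.6 CPM, above the next at 10.0 CPM, and thus lay within the Ctrl range while the other 4 Cdk7_KO libraries did not. Pcna in Ctrl replicate 6 was at 67.0 CPM (next 82.7 CPM) and Ccna2 in the same library at 12.9 CPM (next 18.3 CPM). Chaf1a in Cdk7_KO replicate 1 was at 23.2 CPM (next 20.1 CPM), and E2f1 in Ctrl replicate 4 was at 14.9 CPM (next 17.5 CPM).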

How the results depend on the processing

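The count of replication genes that passed was 0 in edgeR and 0 in each of 20 alternatives, and it was 2 with DESeq2 and 1 with sex as a factor, where 732 of 15578 genes were called. The count lower at an unadjusted p under 0.05 (11 in edgeR) was 4 in the male libraries alone (with 8.19% of all genes lower), 2 with the score of other cell types as a covariate (0.796%) and between 6 and 17 when single libraries were left out (8.27% to 11.3%). It was 17 without Cdk7_KO replicate 1, 6 without Ctrl replicate 5 or Cdk7_KO replicate 2, and 7 without Cdk7_KO replicate 3 or 4. The median log2 fold change kept its sign under every alternative run, moved to -0.050 with the score of other cell types, and lay between -0.25 and -0.18 when single libraries were left out. The ratio of summed CPM (0.879) was 0.799 for the geometric mean of CPM + 0.5, 0.912 with TMM-scaled sizes, 0.918 in males and 0.839 in females, and lay between 0.853 and 0.897 with single libraries left out. The cause of these shifts was not tested. Cdk7 did not pass in edgeR (adjusted p = 0.161), and it passed with DESeq2 (adjusted p = 2.40e-08), without a filter (0.0393), with sex as a factor (0.00828) and without Cdk7_KO replicate 1 (0.0391, within 0.0391 to 0.323 over the libraries left out). Library totals in place of TMM factors moved the median of all genes from 0.01 to -0.04, and the 40 genes to -0.27 with 16 lower at an unadjusted p under 0.05.

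Replicate numbers are shared by 4 Ctrl and Cdk7_KO libraries, but the deviations of same-numbered libraries from their group means correlated at -0.10, 0.31, 0.14 and 0.17 (numbers 1, 3, 4 and 5), and were thus over 0.1 in 3 of 4 pairs. Ctrl replicates 3, 4 and 5 correlated best with the library of their own number and Ctrl replicate 1 with Cdk7_KO replicate 3. The labels give no shared source for a number, and the numbers also follow sex, so they were not taken as pairs. With the replicate block 0 of the 40 genes passed, 9 were lower at an unadjusted p under 0.05, and the median was -0.19. With the block edgeR called 5 genes over all 15578. Depth limits the weakest genes most: Orc1 had 2 to 45 counts per library.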
